A study of Mus with 16 samples.

Results

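The 8 genes described here were given by their Ensembl identifiers in the count table of the P6 (postnatal day 6) mouse forebrain, which lists 54219 genes. They are *Tex14*, *D1Pas1*, *Ddx4*, *Dazl*, *Stra8*, *Sycp3*, *Rps4l*, and *Cyct*, all known mainly from the testis or ovary, and they were chosen by their read counts in the mutant and wild-type (WT) animals of both sexes. The cortex and hippocampus of 16 pups were sequenced after poly(A) selection. The groups held 4 WT males, 4 *Kdm5c*-KO males, whose single X-linked copy is deleted, 4 WT females, and 4 *Kdm5c*-HET females, in which the deletion is heterozygous. Per the study's methods, Cre-mediated recombination had removed exons 11 and 12, the mice were on a mixed C57BL/6J and 129S1/SvImJ background, and the pups came from 3 litters. The allele is constitutive, so all cells of a *Kdm5c*-KO male carry it, whereas the single intact copy in a *Kdm5c*-HET female is on 1 of the X chromosomes. The label that these genes are expressed in the mutant forebrain held only in part. *Tex14* and *Rps4l* were higher in every mutant than in every WT animal of its sex, and *D1Pas1*, *Ddx4*, and *Cyct* were so in males only. The others were genes with reads in all animals and overlapping ranges in WT and mutant animals (*Dazl* and *Sycp3*) and a gene without reads in nearly all animals (*Stra8*).

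Germline genes serve the making of eggs and sperm, and most of them are shut off in other tissues early in development. Methylation of DNA at their promoters and repressor complexes that bind there keep them silent. KDM5C is a histone demethylase that removes methyl groups from lysine 4 of histone H3, a mark of active promoters.

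Levels are given as read counts and as CPM, which are counts scaled to the library size of the animal after TMM normalization. Log2 fold changes and their standard errors (SE) come from edgeR's fit of all genes over the 16 animals. Because mutant and WT values entered the choice of the 8 genes, their differences between genotypes are a description, given with no p-value and supporting nothing. Levels are compared between animals and never between genes, since the length of the counted transcripts was not used here. In whole tissue, more cells with a transcript and more transcript per cell cannot be told apart. Every *Kdm5c*-KO animal was male and every *Kdm5c*-HET animal female. Where these groups are compared, the extent of the loss and sex cannot be told apart.

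The animals had between 21513783 and 30063352 counted reads. *Kdm5c* itself is not analysed here, because the tables at hand pair no identifier with it. The sample labels carry the letter D or E, which the sources used here do not explain. The choroid plexus gene *Ttr* exceeded 50 CPM in 6 animals, namely WT males 2D and 5D, WT females 1D and 3D, and *Kdm5c*-HET females 8E and 9E, and in no *Kdm5c*-KO male. Of 8 choroid plexus markers, 2 could be paired with an identifier (*Ttr* and *Aqp1*). Their summed level was 1.48 to 204.6 CPM in WT males, 1.98 to 2.83 in *Kdm5c*-KO males, 4.00 to 194.6 in WT females, and 3.31 to 86.6 in *Kdm5c*-HET females, and neither was at 0 in any group. *Aqp1* alone was 0.762 to 3.48 CPM in WT males and 0.323 to 0.637 CPM in *Kdm5c*-KO males, so that on this gene the male groups did not overlap. Of 5 blood markers, 4 could be paired (2 alpha and 2 beta globin genes), none at 0 in any group. They summed to 118 to 146 CPM in WT males, 66.1 to 107 in *Kdm5c*-KO males, 90.8 to 104 in WT females, and 96.2 to 103 in *Kdm5c*-HET females, so that the male groups did not overlap. The part of choroid plexus and blood RNA in the male differences below was not tested, beyond leaving out the animals high in *Ttr*. The forebrain neuron marker *Emx1* lay between 27.4 and 41.0 CPM over all animals. All markers named here were paired through the study's own list of changed genes. This favoured differences between groups beforehand, so nothing is read from where the marker ranges do not overlap.

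**Figure D1:**
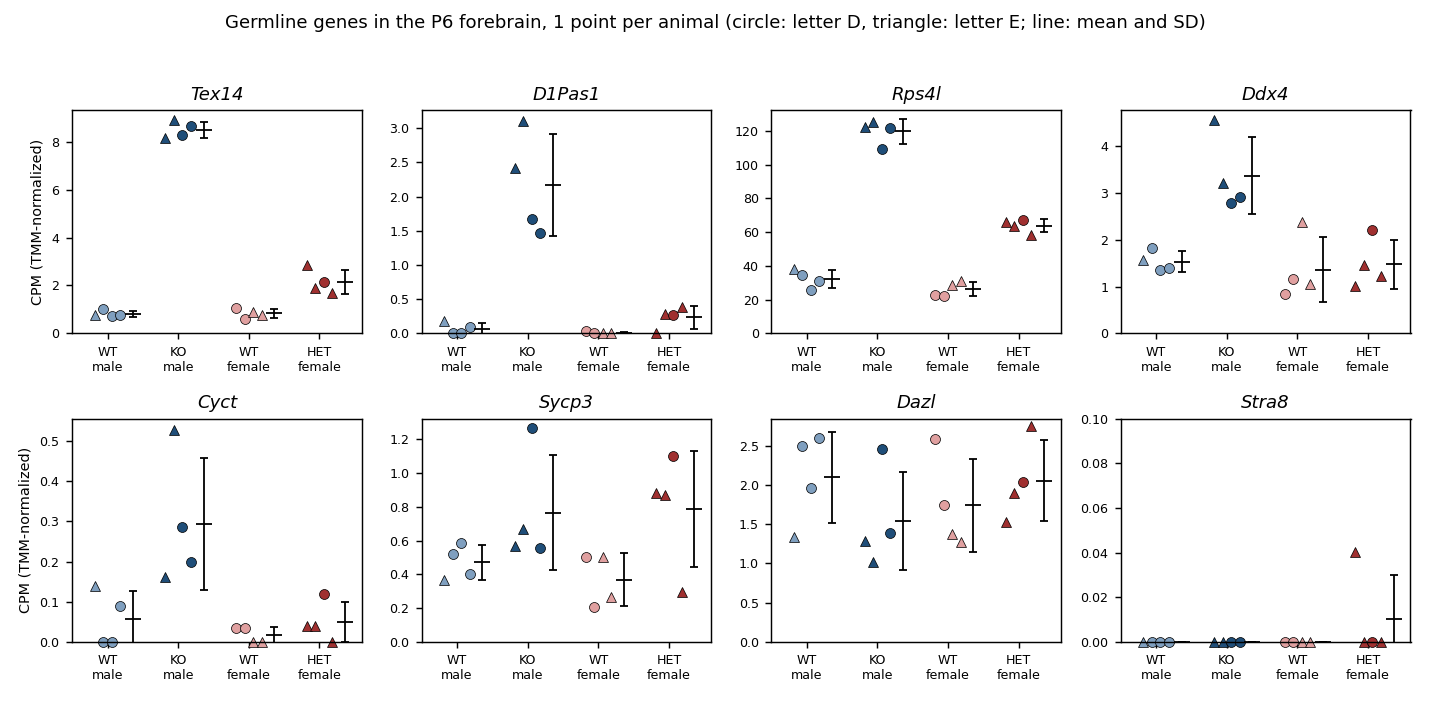
Expression of the 8 germline genes in CPM (vertical axes, each starting at 0 with its own scale) in every animal of the 4 groups, with circles for label letter D, triangles for label letter E, and lines for the group mean and SD (n = 4, lines cut off at 0). *Tex14* and *Rps4l* separate mutants from WT in both sexes, and *D1Pas1*, *Ddx4*, and *Cyct* do so in males. *Dazl* overlaps in both sexes when the letters are pooled, and *Stra8* has 1 read in 1 animal.

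*Tex14* (ENSMUSG00000010342) encodes a protein of the stable intercellular bridges that join dividing germ cells, and germ cells without it cannot keep these bridges. It lies on chromosome 11 of mm10 from 87405013 to 87555823 by RefSeq, which also places 9 small nuclear or long noncoding RNA genes over part of that span. *Tex14* was not silent in WT forebrain, with 17, 27, 21, and 17 counts in the 4 WT males and 32, 18, 21, and 18 counts in the 4 WT females. The *Kdm5c*-KO males had 202, 252, 202, and 217 counts. These values lie far above every WT male and close to each other. The mean of the *Kdm5c*-KO males was 8.49 ± 0.336 CPM, against 0.820 ± 0.129 CPM in WT males (SD, n = 4 per group), and the log2 fold change was 3.36 (SE 0.186). The *Kdm5c*-HET females had 71, 48, 55, and 40 counts. All 4 exceeded every WT female, and all stayed far below every *Kdm5c*-KO male. Their mean was 2.15 ± 0.504 CPM against 0.838 ± 0.190 CPM in WT females (SD, n = 4 each), a log2 fold change of 1.36 (SE 0.198).

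*D1Pas1* (ENSMUSG00000039224), also called PL10, encodes a DEAD-box RNA helicase of male germ cells that closely resembles the helicases made from *Ddx3x* and *Ddx3y* on the sex chromosomes. It lies on chromosome 1 from 186967416 to 186970627, with no other RefSeq gene over it. Only uniquely mapped reads were counted, so reads that fit one of its relatives equally well are missing. WT males had 4 (1E), 0 (2D), 0 (5D), and 2 (7D) counts, and of the WT females 1D had 1 count and the others 0. At this depth most WT animals could not be told apart from 0. The *Kdm5c*-KO males had 60 (2E), 88 (3E), 41 (4D), and 37 (6D) counts. No *Kdm5c*-KO male came near the WT range, and the highest had over 2 times the counts of the lowest. Summed over the animals, 226 counts in *Kdm5c*-KO against 6 in WT males gave a 36.6-fold difference (95% exact interval 16.6 to 101, counting error only). Among the *Kdm5c*-HET females, 8E had 7, 9D had 7, and 9E had 9 counts, but 6E had 0. The 0 of 6E allows a level of up to 0.121 CPM (3 counts), under the 0.275 to 0.381 CPM of the other 3 *Kdm5c*-HET females. The same animal had the highest *Tex14* level of its group (2.85 CPM). Summed, 23 counts against 1 gave a 24.6-fold difference in females (95% exact interval 3.99 to 1012, counting error only). The fitted log2 fold change was 5.05 in males and 4.05 in females, but a few reads in WT animals set its size, which was 6.15 in males without WT male 1E (4 of the 6 WT male counts) and 5.58 in females without WT female 1D (the 1 WT female count).

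*Ddx4* (ENSMUSG00000021758), also known as *Vasa*, encodes the DEAD-box RNA helicase that marks germ cells across animals and sits in their germ granules. It occupies 112598333 to 112652633 on chromosome 13, with no other RefSeq gene over it. WT males had 34, 49, 39, and 31 counts and *Kdm5c*-KO males 113, 91, 68, and 73. The groups did not overlap. The mean level of *Kdm5c*-KO males, 3.37 ± 0.819 CPM, compared with 1.53 ± 0.221 CPM in WT males (SD, n = 4 per group), with a log2 fold change of 1.13 (SE 0.281). WT females had 25 (1D), 34 (3D), 57 (4E), and 24 (5E) counts, and *Kdm5c*-HET females 25 (6E), 37 (8E), 56 (9D), and 29 (9E). The female groups overlapped fully. The log2 fold change in females was 0.14 (SE 0.302), and it was 0.54 without WT female 4E, but -0.05 when WT female 1D and -0.12 when *Kdm5c*-HET female 9D was left out. Each *Kdm5c*-KO male was also above every *Kdm5c*-HET female, the closest values being 2.78 and 2.20 CPM.

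*Dazl* (ENSMUSG00000010592) encodes an RNA-binding protein that regulates translation in germ cells and is needed for their development in both sexes. It lies on chromosome 17 from 50279393 to 50293620. Reads were found in every animal. WT males had 29 (1E), 67 (2D), 57 (5D), and 58 (7D) counts and *Kdm5c*-KO males 32 (2E), 29 (3E), 60 (4D), and 35 (6D). WT females had 77 (1D), 51 (3D), 33 (4E), and 29 (5E) counts and *Kdm5c*-HET females 38 (6E), 48 (8E), 52 (9D), and 65 (9E). All 4 groups overlapped. The log2 fold change was -0.46 (SE 0.291) in males and 0.22 (SE 0.287) in females. *Dazl* was thus detected with *Kdm5c* intact.

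*Stra8* and *Sycp3* serve meiosis. *Stra8* encodes a factor induced by retinoic acid that drives the entry of germ cells into meiosis, and *Sycp3* a component of the protein axis of meiotic chromosomes. *Stra8* (ENSMUSG00000029848, chromosome 6, 34920163 to 34939344) had 0 counts in 15 animals and 1 count in *Kdm5c*-HET female 6E. The 0 counts over the 4 *Kdm5c*-KO males allow a level of up to 0.0292 CPM (3 counts over the group), and the 0 over the 4 WT males one of up to 0.0301 CPM. *Stra8* transcripts were therefore not detectable in the *Kdm5c*-KO forebrain at this depth. *Sycp3* (ENSMUSG00000020059, chromosome 10, 88459587 to 88473236) had a few reads in all animals. There were 8, 14, 17, and 9 counts in WT males and 14, 19, 31, and 14 in *Kdm5c*-KO males. The ranges met, and only 2 of the 4 *Kdm5c*-KO males exceeded all WT males. The mean was 0.470 ± 0.101 CPM against 0.766 ± 0.340 CPM (SD, n = 4 each), a log2 fold change of 0.68 (SE 0.400) that was 0.33 without *Kdm5c*-KO male 4D. WT females had 15, 6, 12, and 6 counts and *Kdm5c*-HET females 22, 22, 28, and 7. Of the *Kdm5c*-HET females, 3 exceeded every WT female and 9E did not (log2 fold change 1.10, SE 0.411). The span of *Chpt1* overlaps that of *Sycp3* in RefSeq, and the strand setting of the counting is not given in the sources used here, so that its low counts are uncertain.

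*Rps4l* and *Cyct* are germline relatives of genes used by all cells, the ribosomal protein gene *Rps4x* and the cytochrome c gene *Cycs*. *Rps4l* (ENSMUSG00000063171) is listed by RefSeq as a transcribed pseudogene at 148354656 to 148355596 on chromosome 6, over which the span of *Tmtc1* extends. Reads that match a close relative equally well are missing from its counts, and reads from an overlapping gene could enter them. WT males had 833, 925, 747, and 687 counts and WT females 686, 645, 693, and 706. Reads assigned to *Rps4l* were thus present with *Kdm5c* intact, and what part of them could come from *Tmtc1* was not tested. *Kdm5c*-KO males had 3029, 3549, 2664, and 3061 counts. Their mean was 119.6 ± 7.20 CPM against 32.4 ± 5.42 CPM in WT males (SD, n = 4 each), a log2 fold change of 1.89 (SE 0.106). *Kdm5c*-HET females had 1645, 1601, 1711, and 1380 counts, or 63.9 ± 3.92 CPM against 26.2 ± 4.35 CPM in WT females (SD, n = 4 each), a log2 fold change of 1.29 (SE 0.107). The 3 genotype levels did not overlap, although the mutant groups also differ in sex. The highest WT animal of either sex had 38.5 CPM, the *Kdm5c*-HET females 58.5 to 67.3 CPM, and the lowest *Kdm5c*-KO male 109.1 CPM.

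*Cyct* (ENSMUSG00000056436) encodes the form of cytochrome c found in sperm mitochondria and lies on chromosome 2 from 76353942 to 76360453. Its counts were too low for the filter of the fit. WT males had 3 (1E), 0 (2D), 0 (5D), and 2 (7D) counts and *Kdm5c*-KO males 4 (2E), 15 (3E), 7 (4D), and 5 (6D). Each *Kdm5c*-KO male was above every WT male, but 2E and 1E differed by 1 read. The sums of 31 and 5 counts gave a 6.03-fold difference (95% exact interval 2.32 to 19.9, counting error only). In females there were 2 counts in WT and 5 in *Kdm5c*-HET animals, a ratio of 2.67 (95% exact interval 0.437 to 28.0, counting error only).

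Of the 8 genes, 5 had every *Kdm5c*-KO male above every WT male (*D1Pas1*, *Tex14*, *Rps4l*, *Ddx4*, and *Cyct*), as did 2.94% of the 35337 genes with a count in at least 1 animal. In females, 2 of the 8 (*Tex14* and *Rps4l*) had every *Kdm5c*-HET animal above every WT animal, beside 1.69% of all those genes. Of the 6 that passed the filter on low counts, 4 were called upregulated in males by edgeR (*D1Pas1*, *Tex14*, *Rps4l*, and *Ddx4*) and 2 in females (*Tex14* and *Rps4l*), beside 3.55% and 0.481% of the 17866 genes tested. *Cyct* and *Stra8* did not pass the filter. Nothing is read from these counts, because the genes were chosen with the same contrasts known.

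**Figure D2:**
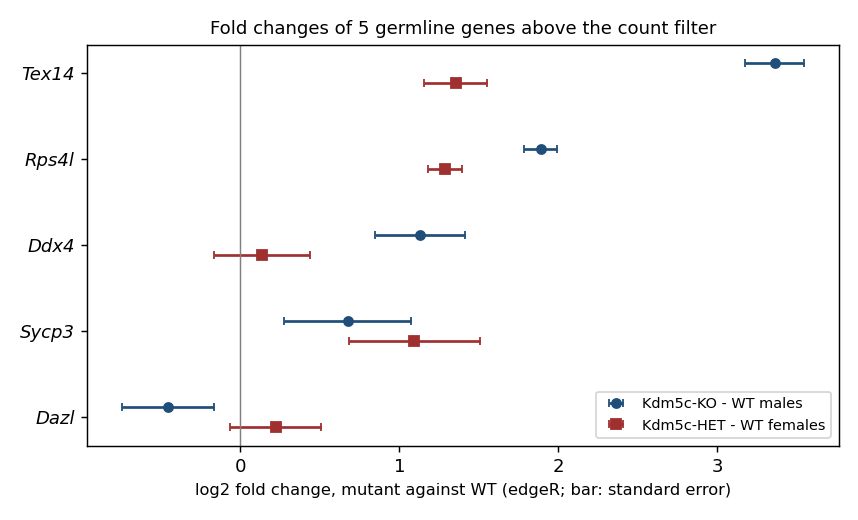
Log2 fold changes of mutant against WT animals (horizontal axis) for 5 of the germline genes that passed the count filter, with circles for males, squares for females, and bars for the standard error of edgeR's fit over 16 animals. *D1Pas1* is left out because its WT counts are near 0, and the male and female values lie farthest apart for *Tex14* (3.36 and 1.36).

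The size of the female difference relative to the male one was not the same for each gene. *Rps4l* was higher by 87.3 CPM in *Kdm5c*-KO males and by 37.6 CPM in *Kdm5c*-HET females over the WT animals of their sex, so that the female increment was 43.1% of the male one (41.4% to 45.2% when each animal was left out in turn). For *Tex14* the increments were 7.67 and 1.32 CPM, or 17.2% (14.1% to 19.1%). For *D1Pas1* they were 2.10 and 0.225 CPM, or 10.7% (8.37% without *Kdm5c*-HET female 9E to 14.4% without 6E). For *Ddx4* the share was 6.46%, and it ranged from -6.77% without *Kdm5c*-HET female 9D to 24.98% without WT female 4E, which leaves its sign unsettled. On the log2 scale, the male response exceeded the female one by 2.01 (SE 0.278) for *Tex14*, 0.60 (SE 0.148) for *Rps4l*, and 0.99 (SE 0.413) for *Ddx4*, where the last was 0.59 without WT female 4E. For *Dazl* the difference was -0.68 (SE 0.408) and for *Sycp3* -0.42 (SE 0.575). That of *D1Pas1*, 0.997, had no settled sign, being -0.53 without WT female 1D and -0.86 without the 6 animals above 50 CPM of *Ttr*. In the latter fit, *Kdm5c*-HET female 9D held the only female reads of *D1Pas1*. The SE derived from the F statistic, 4.23, is not usable with WT counts near 0, as it was 25.2 without WT male 5D. DESeq2 gave 0.79 (SE 1.39). These differences are a description, since both responses were known beforehand, and in them sex and the extent of the loss cannot be told apart.

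Without the 6 animals above 50 CPM of *Ttr*, the log2 fold change of *Tex14* was 3.45 in males and 1.58 in females, and that of *Rps4l* 1.79 and 1.15. That of *Ddx4* was 1.18 in males and -0.10 in females. That of *D1Pas1* moved further, to 3.95 in males and 4.81 in females. Its female value rests on the 7 counts of *Kdm5c*-HET female 9D, since the other females kept had 0. The values of *Tex14* and *Rps4l* were thus similarly large without the 6 animals high in *Ttr*. Among animals of letter D, *Kdm5c*-KO males had 10.2 times the *Tex14* level of WT males (2 against 3 animals), and among those of letter E 10.9 times (2 against 1). In females the ratios were 2.56 (1 against 2) and 2.58 (3 against 2). The ratios of *Rps4l* were 3.80 and 3.22 in males and 2.99 and 2.10 in females, in the order D, E. For *Ddx4* they were 1.87 and 2.48 in males, but 2.20 and 0.720 in females, so that the letters pointed opposite ways there. For *Dazl* they were 0.817 and 0.865 in males, and 0.945 and 1.56 in females. Within letter E, each of the 3 *Kdm5c*-HET females had more *Dazl* than both WT females, although the female groups overlapped when the letters were pooled. Within letter D, the *Kdm5c*-HET female (2.05 CPM) lay between the WT females (1.75 and 2.58 CPM). The share of all genes with such a pattern was not counted, so nothing is read from it. For *D1Pas1* in males the ratios were 52.7 and 14.97, with WT counts near 0 under both letters.

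WT females were also compared with WT males. The counts of these same WT animals entered the choice of the genes, so this comparison is also a description, given without a p-value. *D1Pas1* is left aside, because it passed the filter only through its counts in *Kdm5c*-KO males and had 6 counts in WT males and 1 in WT females. Of the other 5 genes that passed the filter, none was called at q under 0.1 (edgeR, quasi-likelihood test), beside 5% of all genes tested. Nothing is read from this count. *Rps4l* was lower in WT females by 0.31 on the log2 scale (SE 0.109), where 2 of the 4 WT females lay below every WT male. DESeq2 called *Rps4l*. It gave no q for *D1Pas1*, *Tex14*, *Dazl*, or *Ddx4*, so these could not be called by it. *Rps4l* was also called when the label letter entered as a covariate or when low counts were not filtered out, but in no other alternative tried. The difference was 0.03 for *Tex14* (SE 0.223), -0.26 for *Dazl* (SE 0.286), -0.19 for *Ddx4* (SE 0.301), and -0.37 for *Sycp3* (SE 0.434), all from the same fit.

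The animals of letters D and E were also compared, with the 4 groups kept as terms of the fit. This comparison was added after the counts of each animal had been seen, so the members are described without a p-value. The letter was associated with many genes, 23.6% of those tested at q under 0.1 (edgeR). With *D1Pas1* left aside, *Dazl* and *Rps4l* were among them, 2 of 5 members, and nothing particular to the members is read from this count. The difference in *Dazl*, letter E minus letter D, was -0.57 on the log2 scale (SE 0.187). Among WT animals of both sexes, *Dazl* was 1.75 to 2.60 CPM in the 5 of letter D and 1.27 to 1.38 CPM in the 3 of letter E. In 3 of the 4 groups, every animal of letter E was below every animal of letter D, as for 13.2% of the genes tested. *Kdm5c*-HET female 9E went against this, with 2.76 CPM. The *Dazl* call was lost without WT male 1E, *Kdm5c*-KO male 4D, or WT female 1D, where the difference was -0.51, -0.46, and -0.49. For *Rps4l* the difference was 0.17 (SE 0.0629), and its call was lost without WT male 1E, *Kdm5c*-KO male 4D, or any of the 4 WT females. For *Tex14* it was -0.01 (SE 0.142).

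**Figure D3:**
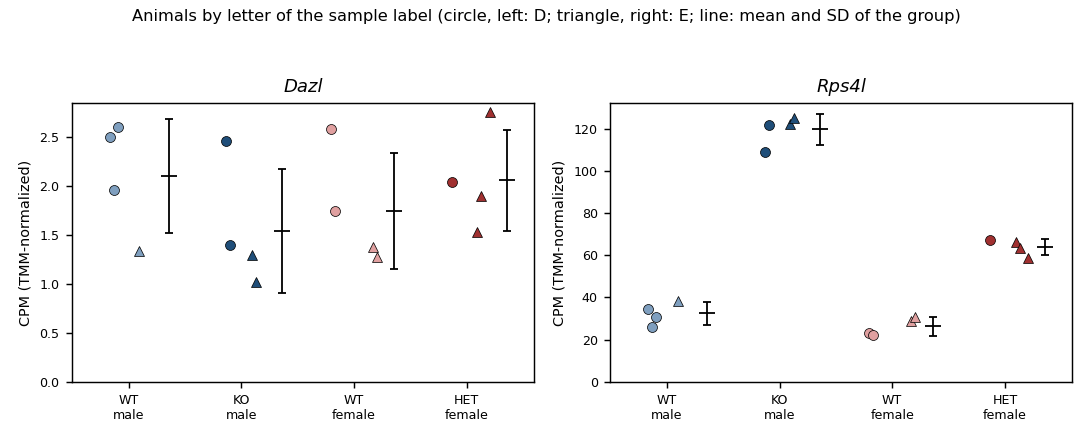
*Dazl* and *Rps4l* in CPM (vertical axes starting at 0) in every animal by group, with animals of letter D as circles on the left and of letter E as triangles on the right, and lines for the group mean and SD (n = 4). The WT animals of letter E lie below those of letter D for *Dazl* (1.27 to 1.38 against 1.75 to 2.60 CPM), whereas for *Rps4l* the genotype groups stay apart under either letter.

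To find the genes whose pattern was most like that of a member, the distance over 3 log2 fold changes was used (*Kdm5c*-KO against WT males, *Kdm5c*-HET against WT females, and WT females against WT males, from fits over 16 animals). Among the genes close to *Tex14* was *4930524B15Rik* at a distance of 0.747, with log2 fold changes of 2.62 in males and 1.33 in females. Closest to *Rps4l* were *A530065N20Rik* (0.0974), the phospholipase gene *Plb1* (0.127), and *Tcfl5* (0.134), a basic helix-loop-helix factor known from the testis. Closest to *Ddx4* were ENSMUSG00000110221 (0.00949) and ENSMUSG00000040364 (0.160), which could not be paired with a symbol, and *Skap1* (0.172), an adaptor of T cell signalling, with log2 fold changes of 1.21 in males and 0.21 in females. No gene lay close to *D1Pas1*, whose nearest named genes were *Gjb1* (2.82) and *Otol1* (2.92), and its own fold change depends on WT counts near 0.

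Other genes of the germline were drawn from a list of 91 symbols on germ cell specification, meiosis, piRNA, sperm, and oocytes. Of these, 8 could be paired with an identifier, all of them through the study's own list of changed genes. They therefore say nothing about the share of germline genes that changed. The 8 were the meiotic genes *Syce2* and *Tex15* and the genes *Piwil1*, *Tdrd1*, *Tdrd6*, *Pld6*, *Rnf17*, and *Fkbp6* of the piRNA pathway, which silences transposons in germ cells. All 8 were called in *Kdm5c*-KO males, with log2 fold changes between 0.59 (*Tex15*) and 3.01 (*Fkbp6*), beside 3.55% of all genes tested that were called higher, but the way they were paired fixed this beforehand and nothing is read from it. *Fkbp6* had 0 to 4 counts in WT males, and the *Kdm5c*-KO males had 7 to 30. Counts of *Syce2*, which encodes a part of the synaptonemal complex, ran from 300 to 409 in WT and from 512 to 712 in *Kdm5c*-KO males. In *Kdm5c*-HET females, animals that also entered the study's list, *Syce2* was the 1 gene of the 8 that was called, beside 0.481% of all genes tested (log2 fold change 0.40, SE 0.0835), and nothing is read from this either. Without the 6 animals above 50 CPM of *Ttr*, 2 of the 8 were called in males and 0 in females. *Syce2* also lost its female call without WT female 1D, WT female 3D, *Kdm5c*-HET female 6E, or *Kdm5c*-HET female 8E.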

How the data were processed

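The authors deposited raw read counts per Ensembl gene. They mapped paired-end reads to mm10 with STAR (2.5.3a), discarded duplicates and reads that mapped to several places, and used FeatureCounts (Subread 1.5.0). Columns were assigned to animals by sample title, and groups were taken from the labels. Within groups, all 24 pairs of animals differed beyond sampling noise (chi-square per gene 2.78 to 13.9), so each animal counted as 1 replicate. The counts were filtered (filterByExpr), TMM-normalized, and fitted with edgeR 4.0.16 in R 4.3.3, with 1 mean per group, no covariate, and a threshold of q under 0.1 after Benjamini-Hochberg adjustment. The test was checked on simulated data, where the share of false calls lay under the threshold for the male comparison but over it for the letters. DESeq2 1.42.0 was an alternative. The SE was derived from the fold change and the F statistic. The members and lists were chosen with earlier results of these data known. The genes named are the 8 members, the list genes called, and the 3 nearest genes to each member with a male log2 fold change above 1. Some of the genes this rule gives are not reported here. The paralogues and partners listed could not be paired with identifiers. The members' symbols rest on the order in which their identifiers were given, and for *Dazl*, *Cyct*, *Stra8*, and *Sycp3* on that alone. Other symbols came from the study's supplementary table (1021 identifiers), whose fold changes and p-values were not used, and coordinates from RefSeq on GRCm38.p6 by symbol. No promoter or protein sequences were used here. Intervals and limits from 3 counts cover counting error only.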

Additional observations from a re-analysis of the deposited data

Results flagged for a closer look

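With Dixon's criterion for a sample far from the others of its group, 3 values stood out among the 32 sets of 4 animals (8 genes in 4 groups), and chance alone gives about 1 in 20. *Sycp3* in *Kdm5c*-KO male 4D was 1.27 CPM (31 counts), while the other 3 *Kdm5c*-KO males had 0.558 to 0.670 CPM. For the other two, a single read decides the value. *D1Pas1* had 1 count (0.0335 CPM) in WT female 1D and none in the other WT females, and *Stra8* had 1 count (0.0402 CPM) in *Kdm5c*-HET female 6E and none in the other *Kdm5c*-HET females.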

How the results depend on the processing

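The fold changes of *Tex14*, *Rps4l*, *Sycp3*, and *Dazl* between genotypes, of *Ddx4* in males, and of *D1Pas1* in each sex kept their direction in all alternatives run, while that of *Ddx4* in females ranged from -0.12 to 0.54. The number of genes called in *Kdm5c*-KO males was 937, 1468 when the label letter was a covariate, and 224 without the 6 animals above 50 CPM of *Ttr*, a setting chosen after seeing the data. It ranged from 555 without WT male 5D to 1129 without *Kdm5c*-KO male 6D. In females it was 91, 137 with DESeq2, 228 without the filter, 157 with the letter, 33 without those 6 animals, and 50 (without WT female 3D) to 89 with each animal left out. The difference of responses was called for 7 genes, 26 with DESeq2, 80 without the filter, 24 with the letter, and 0 without those 6 animals. WT females and WT males differed in 894 genes, 1518 with DESeq2, 1679 with the letter, 13 without those 6 animals, and 69 (without WT female 5E) to 1243 with each animal left out. The letters differed in 4219 genes, and in 1311 among the 8 WT animals. Of the members, 0 were called between WT sexes, and 1 (*Rps4l*) was called with DESeq2, without the filter, or with the letter. Of the 8 list genes paired, 8 were called in males and 2 without those 6 animals. In females 1 was called, 2 with DESeq2, without the filter, or with the letter, 0 in a fit of only the 8 females, 0 without those 6 animals, and 0 to 2 with each animal left out. The causes were not tested. Depth limits *Stra8*, *Cyct*, and *D1Pas1* in WT animals, where single reads decide.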
